A study of Arabidopsis thaliana with 6 samples.

Results

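The genes described here encode the nuclear part of the photosynthetic light reactions: the light-harvesting antennas of both photosystems and the subunits that the nucleus adds to the reaction centres. They were chosen by name, as 36 loci comprising LHCA1 to LHCA4, CAB1 to CAB3, LHB1B1 and LHB1B2, LHCB2 to LHCB6, PSAD to PSAO and PSBO to PSBY. Some copies, such as PSAE2, PSAH1 and PSBQ2, and the subunit PSBTN were not among the 36 loci. Of the 36 loci, 28 had a probe set among the 21430 of the table, and all 28 passed the filter on low signal that kept 16210 probe sets for testing. The loci without a probe set were LHCA2, CAB1, CAB2, CAB3, LHB1B1, LHB1B2, LHCB2.1 and LHCB2.2, so that 7 of the 9 listed genes of the major antenna of photosystem II, among them all LHCB1 copies, were not measured.

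Leaves came from Arabidopsis thaliana plants aged 6 weeks, raised in soil under short days. The low CO2 group was held at 100 ppm CO2 for 24 h and the ambient CO2 group stayed at 400 ppm. Each group has 3 Affymetrix arrays, and each array carries RNA pooled from the leaves of 4 to 5 plants. The labels name no genotype or strain for either group.

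In plants, photosystem II takes electrons from water and passes them to plastoquinone, and photosystem I passes electrons from plastocyanin to ferredoxin. Chlorophyll-binding antenna proteins surround both and feed them excitation energy. Their mRNAs are among the most abundant in green leaves, and they are known to depend on light, sugars and signals from the chloroplast. Low CO2 is known to limit carbon fixation, which uses the products of these reactions, and to favour photorespiration, the stress that the series names.

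The deposited values are log2 signals from GCRMA, a method that corrects probe signals for background, normalizes the arrays and gives a value per probe set. Array medians lay between 6.07 and 6.11 and array maxima between 14.11 and 14.20. Low CO2 replicate 1 stood apart from its group. Over the tested probe sets it correlated at r = 0.962 and 0.947 with low CO2 replicates 2 and 3, and at 0.980 to 0.986 with the ambient arrays, a description across probe sets that share the arrays. Results are therefore given with and without it, and leaving out an array because it stood apart narrows the spread within low CO2 and makes its p-values too small. The leaf genes RCA, CA1, GAPA, GAPB and SBPASE had mean values from 12.82 to 14.15 with a median log2 difference of -0.0039. Of the root genes, WOX5 had no probe set, RHD6 stayed under log2 4 on every array, and SCR and PYK10 lay at means of 8.02 and 9.29. The median difference was -0.34 over 6 guard cell markers, whose means were dim, at log2 4.64 to 6.78. At an unadjusted p under 0.05, by limma, 3 were lower and 1 higher, beside 12.6% and 13.5% of all probe sets. The medians were -0.12 over 5 markers of the epidermis and 0.14 over 4 of vascular tissue. Of these 0 passed that threshold in either list, beside 26.1% of all probe sets. The part of these markers in the results was not tested. In whole leaves, fewer cells of a type and less RNA per cell cannot be told apart.

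Transcripts of the 28 photosystem and antenna genes were at nearly the same level in leaves held at low CO2 as in leaves in ambient CO2. Differences of low CO2 minus ambient CO2 ran from -0.21 for PSBQA to 0.18 for LHCB4.3 on the log2 scale, which is 0.863-fold to 1.13-fold. Of the 28 genes, 10 had a higher mean and 18 a lower mean in low CO2, beside 7492 and 8718 of all 16210 probe sets. The median difference was -0.061 over the 28 genes and -0.029 over all probe sets. By limma, with Benjamini-Hochberg adjustment over all probe sets, 0 of the 28 passed an adjusted p of 0.05, where the share over all probe sets was 0%. At an unadjusted p under 0.05 there were 0 of 28, beside 26.1% of all probe sets (13.5% higher and 12.6% lower in low CO2). For other probe sets with a mean of log2 12 or above the share was 21.5%, and at 13 or above it was 14.3%. A fit that left out low CO2 replicate 1 put 35.3% of tested probe sets past the adjusted threshold, 16.8% up and 18.5% down. Of the 28 genes, 0 were among them. The smallest adjusted p of the 28 in that limma fit was 0.108, for PSAH2.

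A missed threshold does not show equal levels, so the intervals set the limit. The limma 95% intervals of all 28 genes included 0 and their outermost bounds were -0.55 and 0.58, so that none reached 1.5-fold with all 6 arrays (widest bound 1.49-fold, for LHCB4.3). Without low CO2 replicate 1 the outermost bounds were -0.61 and 0.49. In that fit the lower bounds of PSBQA (-0.614) and PSAH2 (-0.587) lay beyond 1.5-fold. The spread among replicates was small. The median within-group SD was 0.072 over the 28 genes and 0.19 over all tested probe sets. Limma draws each gene's variance towards that of all probe sets. This widened the intervals of the steadiest genes and made an unadjusted p under 0.05 harder for them to reach.

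**Figure D1:**
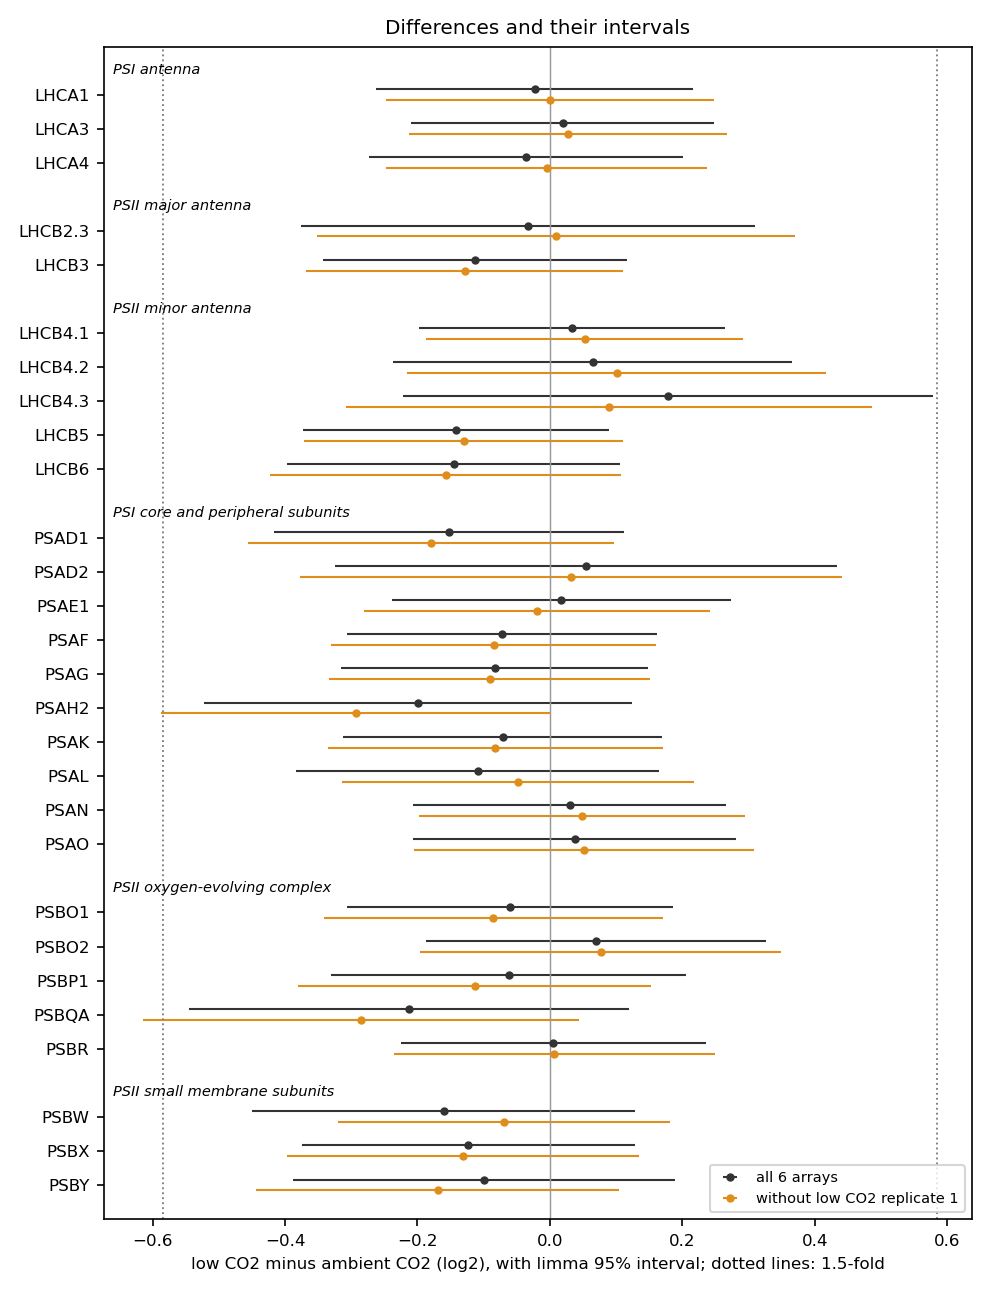
Difference in log2 value, low CO2 minus ambient CO2, for 28 photosystem and antenna genes. Points are limma estimates and bars their 95% intervals, in black for all 6 arrays and in orange without low CO2 replicate 1, and the dotted lines mark 1.5-fold. With all 6 arrays every bar crosses 0 and lies within the dotted lines. Without low CO2 replicate 1 the lower ends of PSBQA and PSAH2 lie beyond 1.5-fold.

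Signal level bears on how these values are read. Of the 28 genes, 27 had a mean of log2 12 or above and 21 a mean of 13 or above, while 185 and 56 of all tested probe sets did. LHCA3 was the brightest probe set of the table on low CO2 replicates 2 and 3. Other probe sets at that level also differed less than the rest. The median absolute difference was 0.13 over the 35 other probe sets at 13 or above and 0.17 over the 158 others at 12 or above, against 0.23 over all tested, and 0.062 and 0.069 over the photosystem genes at the same levels. Without low CO2 replicate 1, limma called 4 of those 35 (11.4%) and 40 of those 158 (25.3%). Whether the brightest probes were saturated was not tested, because scanner intensities were not used here.

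**Figure D2:**
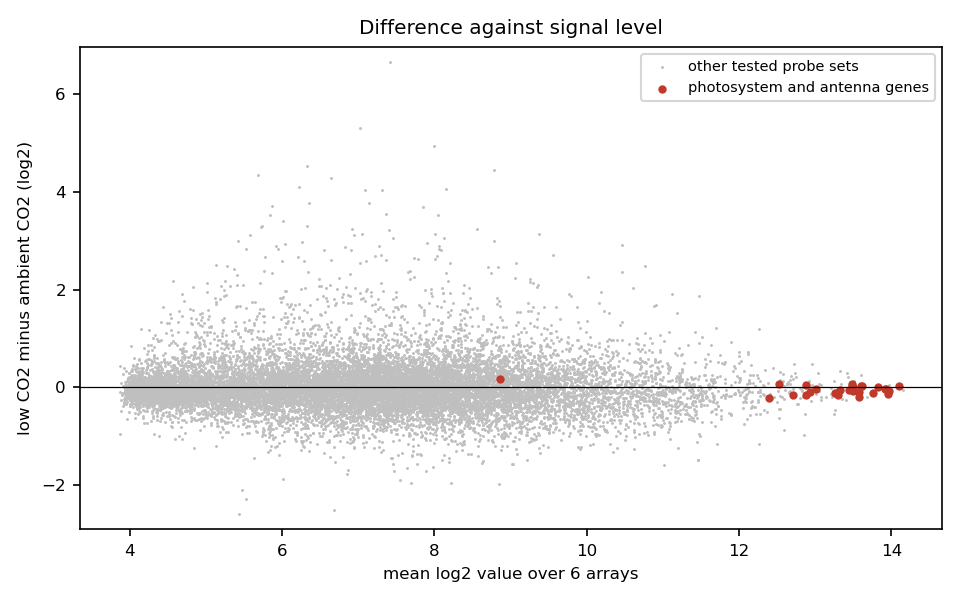
Difference of low CO2 minus ambient CO2 (log2, vertical axis) against the mean log2 value over 6 arrays (horizontal axis) for the 16210 tested probe sets. Red points are the 28 photosystem and antenna genes, 27 of them at a mean of 12 or above and LHCB4.3 at 8.86, and grey points are the other probe sets.

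The antenna of photosystem I is built from LHCA proteins bound in a crescent along one side of the core. LHCA1 (AT3G54890_at) read log2 13.86, 13.93 and 13.92 in low CO2, against 13.96, 13.86 and 13.96 in ambient CO2. LHCA4 (AT3G47470_at), the partner of LHCA1 in a dimer, read 13.85, 13.92 and 13.97 in low CO2, against 13.92, 13.96 and 13.96 in ambient CO2. LHCA3 (AT1G61520_at), which binds chlorophylls that absorb far-red light, read 14.10, 14.14 and 14.11 in low CO2, against 14.10, 14.08 and 14.11 in ambient CO2. In all 3 genes the groups overlapped, and their differences of -0.023, -0.036 and 0.019 were each smaller than their limma SEs of 0.10, 0.10 and 0.096. LHCA1 turned to 0.026 after quantile normalization and LHCA3 to -0.012 after centring of the arrays, so neither has a settled direction.

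Of the major antenna of photosystem II, which forms the mobile LHCII trimers, LHCB2.3 and LHCB3 were measured. LHCB3 (AT5G54270_at), a trimer subunit of the inner antenna, read 13.73, 13.70 and 13.67 in low CO2, against 13.82, 13.81 and 13.82 in ambient CO2. All 3 low CO2 values lay below all 3 ambient values, which spanned 0.012. The group means were 13.70 ± 0.029 in low CO2 and 13.82 ± 0.0062 in ambient CO2 (SD, n = 3 each), and the difference was -0.11 (SE 0.097, 95% interval -0.34 to 0.12, limma adjusted p = 0.47). LHCB2.3 (AT3G27690_at), a copy of the LHCII subunit that the kinase STN7 phosphorylates, read 12.91, 13.16 and 12.91 in low CO2, against 13.21, 12.82 and 13.05 in ambient CO2. It varied more between replicates than LHCB3 and its groups overlapped, with a difference of -0.033 that turned to 0.0092 without low CO2 replicate 1.

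The minor antenna proteins CP29, CP26 and CP24 sit between the LHCII trimers and the photosystem II core as monomers. Of their genes, LHCB5 and LHCB6 were lower on every low CO2 array than on any ambient array, and the 3 genes of CP29 were not. LHCB5 (AT4G10340_at), which encodes CP26, read 13.86, 13.91 and 13.87 in low CO2, against 14.00, 14.03 and 14.04 in ambient CO2. Its means were 13.88 ± 0.028 in low CO2 and 14.02 ± 0.022 in ambient CO2 (SD, n = 3 each), a difference of -0.14 that exceeded both SDs (SE 0.097, interval -0.37 to 0.089, limma adjusted p = 0.374). LHCB6 (AT1G15820_at), which encodes CP24, read 13.25, 13.30 and 13.13 in low CO2, against 13.42, 13.31 and 13.37 in ambient CO2. The nearest values of its groups lay close together, on low CO2 replicate 2 and ambient replicate 2, and the difference was -0.15 (SE 0.11, interval -0.40 to 0.11, limma adjusted p = 0.4). With limma's eBayes set to both a variance trend on signal level and robust estimation, the SE of LHCB5 narrowed to 0.063 and its adjusted p was 0.205, the smallest of these 28 genes in that fit.

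The CP29 genes overlapped between the groups. LHCB4.1 (AT5G01530_at) read 13.58, 13.65 and 13.63 in low CO2, against 13.60, 13.59 and 13.57 in ambient CO2, and LHCB4.2 (AT3G08940_at) read 13.44, 13.57 and 13.53 in low CO2, against 13.64, 13.29 and 13.42 in ambient CO2. LHCB4.3 (AT2G40100_at), the copy known to be induced under long exposure to strong light, read 9.12, 9.07 and 8.64 in low CO2, against 8.58, 8.91 and 8.80 in ambient CO2. It was the only one of the 28 probe sets with a mean under log2 12. Its low CO2 values were high on replicates 1 and 2 and low on replicate 3, and the difference was 0.18 (SE 0.17, interval -0.22 to 0.58, limma adjusted p = 0.516). Differences were 0.033 for LHCB4.1 and 0.065 for LHCB4.2, which turned to -0.015 without ambient replicate 2.

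**Figure D3:**
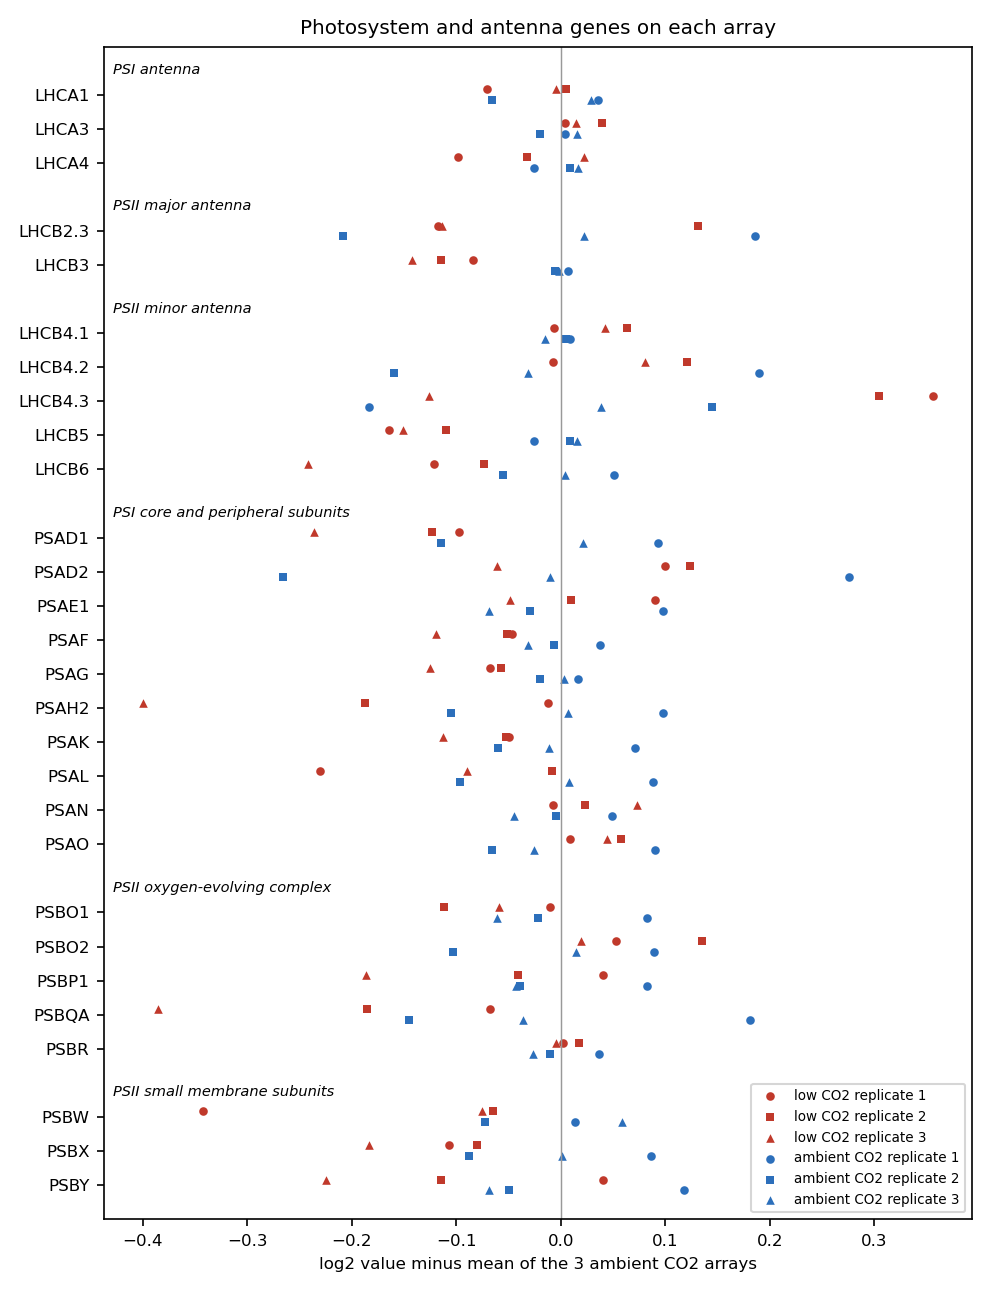
Log2 value of each of the 28 genes on each array, minus that gene's mean over the 3 ambient CO2 arrays. Red symbols are low CO2 and blue symbols ambient CO2, with a symbol for each replicate. The red and blue symbols overlap for 23 genes, and for LHCB3, LHCB5, LHCB6, PSAF and PSAG all red symbols lie left of all blue ones.

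Of the nuclear subunits of photosystem I, PSAD and PSAE form the stromal ridge where ferredoxin docks. PSAD1 (AT4G02770_at) read 12.86, 12.83 and 12.72 in low CO2, against 13.05, 12.84 and 12.98 in ambient CO2, and PSAD2 (AT1G03130_at) read 12.96, 12.98 and 12.80 in low CO2, against 13.13, 12.59 and 12.85 in ambient CO2. Low CO2 replicate 1 of PSAD1 lay just above ambient replicate 2, and the groups of both genes overlapped. The differences were -0.15 and 0.054, and that of PSAD2 turned to -0.078 without ambient replicate 2. PSAE1 (AT4G28750_at) read 13.59, 13.50 and 13.45 in low CO2, against 13.59, 13.47 and 13.43 in ambient CO2, a difference of 0.017 that turned to -0.014 after centring.

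PSAF, PSAN, PSAG and PSAK lie at the lumen side or the flanks of the complex. PSAF (AT1G31330_at), which helps plastocyanin to bind, read 13.49, 13.48 and 13.42 in low CO2, against 13.57, 13.53 and 13.50 in ambient CO2. PSAG (AT1G55670_at), where the LHCI crescent is anchored, read 13.55, 13.56 and 13.49 in low CO2, against 13.63, 13.60 and 13.62 in ambient CO2. In both genes the low CO2 values lay below all ambient values, by differences of -0.072 (SE 0.099, limma adjusted p = 0.657) and -0.083 (SE 0.097, limma adjusted p = 0.6). PSAK (AT1G30380_at), at the other end of the crescent, read 13.96, 13.96 and 13.90 in low CO2, against 14.08, 13.95 and 14.00 in ambient CO2, with overlap and a difference of -0.071. PSAN (AT5G64040_at), a lumenal subunit, read 13.60, 13.63 and 13.68 in low CO2, against 13.65, 13.60 and 13.56 in ambient CO2. Its difference was 0.030, and low CO2 replicate 3 was its highest value.

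PSAH, PSAL and PSAO form the side of photosystem I to which mobile LHCII binds in state transitions. PSAH2 (AT1G52230_at) read 13.66, 13.49 and 13.28 in low CO2, against 13.77, 13.57 and 13.68 in ambient CO2. Its low CO2 values spread over 0.39, from low CO2 replicate 3 at the bottom to replicate 1 among the ambient values. The difference was -0.20 (SE 0.14, interval -0.52 to 0.12, limma adjusted p = 0.372). Leaving out that replicate 1 gave -0.29 (adjusted p = 0.108 by limma). PSAL (AT4G12800_at) read 13.11, 13.34 and 13.25 in low CO2, against 13.43, 13.25 and 13.35 in ambient CO2, and low CO2 replicate 1 was its lowest value. PSAO (AT1G08380_at) read 13.48, 13.53 and 13.52 in low CO2, against 13.56, 13.41 and 13.45 in ambient CO2. Differences were -0.11 for PSAL and 0.037 for PSAO, both with overlap.

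The extrinsic proteins of photosystem II shield the manganese cluster that splits water. PSBO1 (AT5G66570_at), the main copy of the manganese-stabilising protein, read 13.47, 13.36 and 13.42 in low CO2, against 13.56, 13.45 and 13.41 in ambient CO2. PSBO2 (AT3G50820_at), its second copy, read 12.54, 12.62 and 12.51 in low CO2, against 12.58, 12.38 and 12.50 in ambient CO2. The groups of both overlapped, with differences of -0.060 and 0.069. PSBP1 (AT1G06680_at), which helps to retain calcium and chloride at the cluster, read 13.40, 13.32 and 13.17 in low CO2, against 13.44, 13.32 and 13.31 in ambient CO2, a difference of -0.062. PSBQA (AT4G21280_at), which acts with PSBP, read 12.43, 12.31 and 12.11 in low CO2, against 12.68, 12.35 and 12.46 in ambient CO2. PSBQA had the lowest difference of the 28 genes, -0.21 (SE 0.14, interval -0.55 to 0.12, limma adjusted p = 0.355). Its low CO2 replicate 1 lay above ambient replicate 2, and leaving that array out gave -0.29 (limma adjusted p = 0.152). PSBR (AT1G79040_at), needed for stable binding of PSBP, read 13.83, 13.84 and 13.82 in low CO2, against 13.86, 13.82 and 13.80 in ambient CO2. Its values were within 0.063 of each other on all 6 arrays, and its difference of 0.0052 has no settled sign.

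The small membrane subunits PSBW, PSBX and PSBY are small proteins at the rim of photosystem II. All 3 had lower means in low CO2, and in all 3 the groups overlapped. PSBW (AT2G30570_at), which stabilises supercomplexes with LHCII, read 12.44, 12.72 and 12.71 in low CO2, against 12.80, 12.71 and 12.84 in ambient CO2. Its lowest value was low CO2 replicate 1, without which its difference of -0.16 (SE 0.12, limma adjusted p = 0.419) shrank to -0.070. PSBX (AT2G06520_at) read 13.22, 13.24 and 13.14 in low CO2, against 13.41, 13.24 and 13.33 in ambient CO2, a difference of -0.12. PSBY (AT1G67740_at), beside cytochrome b559, read 13.03, 12.87 and 12.76 in low CO2, against 13.10, 12.94 and 12.92 in ambient CO2, a difference of -0.10.

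The genes whose groups did not overlap were thus LHCB3, LHCB5, LHCB6, PSAF and PSAG, all lower in low CO2, while 0 genes lay entirely higher. Over all tested probe sets the groups did not overlap for 14.3% in the lower and 14.6% in the higher direction. The 5 lower genes are 17.9% of 28, close to the share of all probe sets. For each of them alone, an exact permutation test of 3 against 3 arrays gives its smallest possible two-sided p of 0.1. The count was 10 without low CO2 replicate 1, 9 without ambient replicate 1 and 13 without ambient replicate 2, where groups of fewer arrays overlap less easily. After centring of the arrays the count was 8. The share over all probe sets was not counted in those settings, so these counts cannot be set against a background.

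Compared by photosystem, the 13 genes of photosystem I had a median difference of -0.036 and the 15 of photosystem II one of -0.062. Relative to each gene's ambient mean, the photosystem I genes had medians of -0.046, -0.0078 and -0.061 on the low CO2 arrays, against 0.071, -0.060 and 0.0032 on the ambient arrays, in replicate order. Photosystem II medians were -0.0098, -0.064 and -0.13 on the low CO2 arrays, against 0.082, -0.050 and -0.0012 on the ambient arrays. Low CO2 replicate 3 lay below every ambient array in both photosystems, and in photosystem II replicate 2 did too, while the remaining low CO2 medians lay between the ambient ones.

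Compared by role, the 10 antenna genes had a median difference of -0.028 and the 18 subunit genes one of -0.072. By array, antenna medians were -0.077, 0.022 and -0.059 in low CO2, against 0.0080, -0.013 and 0.016 on the ambient arrays. Subunit medians were -0.011, -0.052 and -0.10 on low CO2, against 0.087, -0.062 and -0.018 on ambient CO2. The low CO2 antenna medians lay on both sides of the ambient ones. The difference between antenna and subunits was not tested, since a score over chosen genes has no independent test here.

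Values of many of these genes moved together from array to array. On ambient replicate 1, 23 of the 28 had their highest ambient value and the median lay 0.077 above the ambient mean, while 17 had their lowest on ambient replicate 2, at a median of -0.053. Within low CO2, 16 of the 28 were lowest on replicate 3, with a median of -0.10, and 15 were highest on replicate 2. After quantile normalization the median difference of the 28 was -0.0044 in place of -0.061, and 15 genes had a lower mean in place of 18. Centring each array on its median gave -0.092 and 22 lower genes.

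Several subunits are encoded by a pair of near copies, and 9 pairs of copies were compared by the difference between their values on each array. In PSAD, PSAD1 differed by -0.15 and PSAD2 by 0.054, a gap of -0.21 (SE 0.10). In PSAH, PSAH2 differed by -0.20 and PSAH1, which is not among the 28, by 0.041, a gap of -0.24 (SE 0.095). In PSBO the gap between PSBO1 and PSBO2 was -0.13 (SE 0.074). The exact permutation p was 0.2 for each of these and for PSBQA against PSBQ2, and 0.4 to 0.7 for the pairs among the LHCB4 genes and of PSAE and PSBP. None came below 0.45 after Benjamini-Hochberg adjustment over the 9 pairs, and 0.1 is the smallest p that 3 against 3 arrays can give. How far cross-hybridisation joins the values of such copies was not tested.

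**Figure D4:**
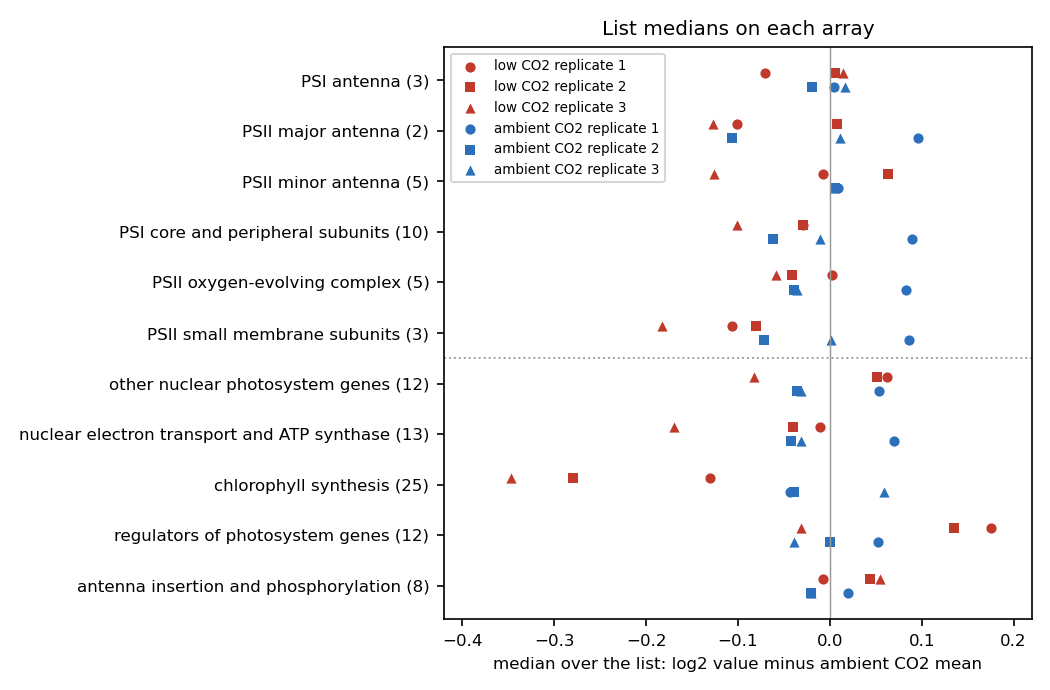
Median over each list of the log2 value minus the gene's ambient CO2 mean, on each of the 6 arrays. Red symbols are low CO2 and blue symbols ambient CO2, with the number of tested genes in brackets and the 28 photosystem and antenna genes above the dotted line. The low CO2 symbols of chlorophyll synthesis lie from -0.35 to -0.13, left of all ambient symbols of that list.

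Among other photosystem genes, which comprise further subunits, relatives and assembly factors of the same complexes, LHCB7 had the largest difference. Of 12 tested, 7 were higher and 5 lower, with a median of 0.031. The groups did not overlap for 2 in the higher and 2 in the lower direction, beside 14.6% and 14.3% of all probe sets. By limma 0 passed the adjusted threshold, and 1 gene was higher at an unadjusted p under 0.05, beside 13.5% of all probe sets. That gene was LHCB7 (AT1G76570_at), a rarely expressed relative of the antenna proteins, which read 8.71, 9.21 and 9.45 in low CO2, against 8.19, 8.43 and 8.09 in ambient CO2. Each low CO2 value exceeded each ambient one, a 1.85-fold difference (log2 0.89, SE 0.21, limma adjusted p = 0.118). On leaving out low CO2 replicate 1, the log2 difference grew to 1.10 (adjusted p = 0.00266 by limma). PSB28 (AT4G28660_at), a factor of photosystem II assembly, read 10.60, 9.65 and 9.45 in low CO2, against 10.28, 10.26 and 10.37 in ambient CO2. Replicate 1 was above the ambient arrays and replicates 2 and 3 were below them, and without replicate 1 PSB28 fell by 0.76 (limma adjusted p = 0.0042). PSBP2 differed by -0.17 (limma adjusted p = 0.431).

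Genes of chlorophyll synthesis, whose product the antenna proteins bind, were mostly lower in low CO2. That held for 24 of 25, beside 8718 of all 16210 probe sets, with a median of -0.36 over the 25. With all 6 arrays 0 passed limma over all genes, and 12 were lower at an unadjusted p under 0.05, beside 12.6% of all probe sets. In 15 the low CO2 values lay below all ambient values, beside 14.3% of all probe sets, and in 1, HEMD (uroporphyrinogen III synthase, a difference of 0.17, named after its value was seen), they lay above, beside 14.6%. Without low CO2 replicate 1, 11 fell and 0 rose, beside 18.5% and 16.8% of all probe sets. CHLI1 (AT4G18480_at), a subunit of magnesium chelatase, read 11.39, 11.10 and 10.89 in low CO2, against 11.65, 11.81 and 11.82 in ambient CO2, a difference of -0.63 (SE 0.15, limma adjusted p = 0.12). HEME2, uroporphyrinogen decarboxylase, and HEMB1, aminolevulinate dehydratase, differed by -0.57 (SE 0.15) and -0.52 (SE 0.12), with limma adjusted p of 0.127 and 0.118. CAO (AT1G44446_at), which makes the chlorophyll b found in antennas, read 11.14, 11.20 and 10.96 in low CO2, against 11.16, 11.18 and 11.15 in ambient CO2, a difference of -0.062 with overlap. GUN4 (AT3G59400_at), an activator of magnesium chelatase, averaged 12.10 ± 0.14 in low CO2 and 12.17 ± 0.13 in ambient CO2 (SD, n = 3 each), a difference of -0.075.

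Regulators of photosystem genes, a list that includes the plastid sigma factors SIG1 to SIG6, differed in both directions. Of 12, 9 were higher and 3 lower, and 0 passed the adjusted threshold. At an unadjusted p under 0.05, 5 were higher and 1 lower, beside 13.5% and 12.6% of all probe sets. Without low CO2 replicate 1, 5 rose and 1 fell, beside 16.8% and 18.5% of all probe sets. GLK1 (AT2G20570_at), a transcription factor known to activate antenna and chlorophyll genes, read 10.09, 9.61 and 9.27 in low CO2, against 10.15, 10.46 and 10.17 in ambient CO2. All its low CO2 values lay below the ambient ones, with replicate 1 the closest, and it differed by -0.60 (SE 0.22, limma adjusted p = 0.158), or -0.82 without replicate 1 (limma adjusted p = 0.00871). Its relative GLK2 (AT5G44190_at) read 10.48, 10.19 and 10.09 in low CO2, against 10.36, 10.33 and 10.32 in ambient CO2, with overlap and a difference of -0.088. CGA1 (AT4G26150_at), a GATA factor that promotes greening, read 7.09, 7.16 and 7.67 in low CO2, against 6.20, 5.78 and 5.92 in ambient CO2. It had the largest difference of the list, 2.53-fold (log2 1.34, SE 0.19, limma adjusted p = 0.0973), and no overlap. The sigma factors SIG3 and SIG5, which direct the plastid RNA polymerase, differed by 0.79 (SE 0.13) and 1.12 (SE 0.35), with limma adjusted p of 0.0973 and 0.136. Without low CO2 replicate 1, CGA1 rose by 1.45 (limma adjusted p = 0.00274), and SIG3 and SIG5 rose by 0.86 and 1.49 (limma adjusted p = 0.00361 and 0.00414). The other rises in that fit, named after their values were seen, were HY5, a light-signalling factor, and the sigma factor SIG4. They rose by 1.11 and 1.13 (limma adjusted p = 0.00261 and 0.00107). With all 6 arrays HY5, whose groups overlapped, differed by 0.79 and SIG4 by 0.77 (limma adjusted p = 0.147 and 0.166).

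The proteins that insert antenna proteins into the membrane and phosphorylate them were also split. Of 8, 4 were higher and 4 lower, with a median of -0.028 and 0 past the adjusted threshold. At an unadjusted p under 0.05, 2 were higher, beside 13.5% of all probe sets, and without low CO2 replicate 1, 3 rose, beside 16.8%. TAP38 (AT4G27800_at), the phosphatase that removes phosphate from LHCII, read 10.45, 10.79 and 11.05 in low CO2, against 10.10, 10.16 and 9.91 in ambient CO2, a 1.63-fold difference (limma adjusted p = 0.121). STN7 (AT1G68830_at), the kinase that adds it, read 10.22, 10.44 and 10.48 in low CO2, against 10.14, 9.88 and 9.86 in ambient CO2, a 1.34-fold difference (limma adjusted p = 0.138). In both genes every low CO2 value lay above every ambient value, and without low CO2 replicate 1 they rose by 0.86 and 0.50 (limma adjusted p = 0.00454 and 0.0226). The remaining rise in that fit, named after its value was seen, was the kinase STN8, by 0.37 (limma adjusted p = 0.0291). LTD, which hands antenna proteins to the chloroplast signal recognition particle, differed by -0.21 (limma adjusted p = 0.264).

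Nuclear genes of electron transport and ATP synthase showed small differences. Of 13, 5 were higher and 8 lower, with a median of -0.064, 0 at an unadjusted p under 0.05 (26.1% of all probe sets), and 1 fall without low CO2 replicate 1, beside 18.5% of all probe sets. That gene was ATPD, the delta subunit of ATP synthase. It differed by -0.38 with all arrays (limma adjusted p = 0.288) and by -0.61 without that array (limma adjusted p = 0.0134). FD2, the main leaf ferredoxin, differed by -0.23 (SE 0.11), and PGRL1B, of cyclic electron flow, by 0.36 (SE 0.20). Of 6 plastid genes of the photosystem cores, 5 had no probe set and psbA shares all its values with another probe set, so their levels are not reported. Differences between these lists and the photosystem genes were not tested.

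**Figure D5:**
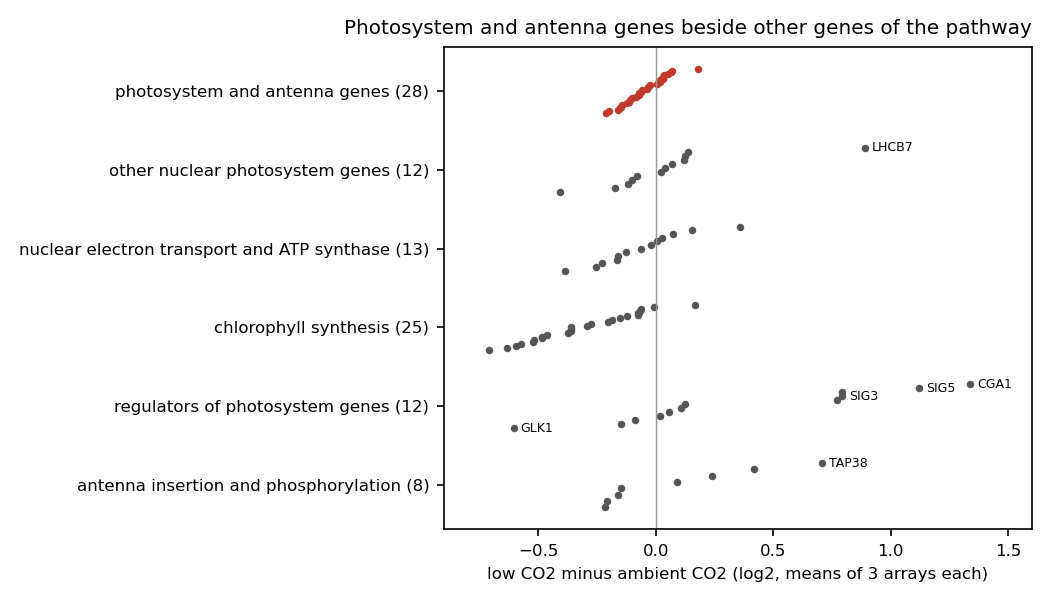
Difference in log2 value, low CO2 minus ambient CO2 (means of 3 arrays each), with a point for each tested gene and the number of genes in brackets. The 28 photosystem and antenna genes, in red, span -0.21 to 0.18, whereas chlorophyll synthesis spans -0.71 to 0.17 and the regulators span -0.60 to 1.34.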

How the data were processed

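Biotin-labelled cRNA from 5 µg total RNA per pool was hybridised to Affymetrix arrays, per the labels' protocols. The deposited log2 values came from GCRMA (per the submitters' processing notes, with no version), and their log base was read from the values. GCRMA corrects background by probe sequence and normalizes between arrays, which sets a floor for dim probe sets and evens out the arrays. No coordinates are printed, since the sources used here name no genome build. Loci were looked up in RefSeq's table (assembly TAIR10.1), which held 21231 of 21430 loci and 135 of the 141 genes listed here. Gene names are those of the lists chosen here and differ from RefSeq's symbols for some genes. RefSeq has GPRI1 for GLK1 and CH1 for CAO, and gives the symbol CAO to AT2G47450, a different gene. Sequences of these genes were not used here.

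Groups and replicate numbers are the labels' own. A probe set was tested where 3 or more arrays reached log2 4, and fitted in limma 3.58.1 (R 4.3.3, lmFit and eBayes, 2-sided, Benjamini-Hochberg at 0.05 over all 16210). The code was tested on simulated data. Genes and lists were chosen with earlier results of these data known. Every measured gene was named, and from each pathway list the 3 genes of smallest p plus GLK1, GLK2, CAO and GUN4. Settings tried were no filter, a floor of log2 5, trend with robust eBayes, quantile normalization, centring, a replicate block, array weights and each array left out. Pools may differ technically, and p-values measure only the spread between them. The number of arrays limits the precision. Plots used matplotlib 3.10.9.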

Additional observations from a re-analysis of the deposited data

How the results depend on the processing

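With no filter, a floor of log2 5, trend with robust eBayes, quantile normalization or centring, 0 of the 28 genes were called. In each of these 0 of all probe sets were called too, so the count says nothing particular about the 28 genes. Leaving out any single array also gave 0 of the 28. Among these settings and omissions, other probe sets were called only without low CO2 replicate 1. Of them, only that omission could have set the count apart from the background. Deviations of same-numbered arrays correlated at -0.19, 0.016 and -0.20, so the numbers were not taken as pairs. With the replicate block 0 genes of the 28 and 0 of all probe sets were called, and no call changed, with 3223 probe sets at an unadjusted p under 0.05. Array weights called 10371 of the 16210 probe sets and 1 of the 28, LHCB4.3. Their estimation, however, stopped before convergence with a weight of 40.4 on low CO2 replicate 2 and 0.12 on replicate 1. Over the omissions of single arrays, 0 to 5723 probe sets were called, the latter without low CO2 replicate 1 alone. The groups of 5 to 13 genes did not overlap in those omissions, with 8 after centring. The share of all probe sets without overlap was not counted in those settings. After quantile normalization the medians were 0.026 for the photosystem I antenna, -0.018 for photosystem I subunits, -0.0052 for the oxygen-evolving complex, -0.044 for the small membrane subunits and -0.0044 for all 28. Over single omissions the median of the oxygen-evolving complex ran from -0.085 to -0.00024.

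Signs turned mostly for genes near no difference, but with array weights also for PSAL and PSBP2. Without weights these 2 genes differed by -0.11 and -0.17. Quantile normalization gave 0.026 for LHCA1, 0.014 for LHCB2.3 and 0.0029 for PSAK. Centring gave -0.012 for LHCA3, -0.014 for PSAE1, -0.0012 for PSAN and -0.026 for PSBR. Array weights gave 0.0031 for LHCA1, 0.15 for LHCB2.3, 0.0034 for PSAL, 0.035 for CAO, 0.032 for GUN4 and 0.033 for PSBP2. Over the 6 omissions of 1 array, differences ran for CAO from -0.11 to 0.0070, for LHCA1 from -0.056 to 0.00037, for LHCB2.3 from -0.14 to 0.060, for LHCB4.2 from -0.015 to 0.16, for PSAD2 from -0.078 to 0.19, for PSAE1 from -0.019 to 0.066, for PSAH1 from -0.0033 to 0.091 and for PSBR from -0.0078 to 0.023. The cause was not tested. From the pathway lists, 24 genes outside the 28 are named with values. Most were picked for a small p in these data, and 5 (HY5, SIG4, STN8, HEMD and PSAH1) after their values were seen. Of the 24, 15 passed the threshold without low CO2 replicate 1, beside 35.3% of all probe sets, a count that the choice by p raises. Without any other single array 0 passed, where 0 of all probe sets did.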
